A study of Rattus norvegicus with 3 samples.

Results

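The genes described here encode the building blocks of the cytoskeleton and of its contractile apparatus in the rat kidney: actins, myosin heavy and light chains, tropomyosins, tubulins, keratins, and the smooth muscle genes Des, Tagln and Cnn. They were chosen by gene symbol, but with earlier results of these data known, so the list was not blind to the values. A gene was taken when a probe set (the group of short probes that reads a transcript) carried a single symbol beginning with one of these family names, and Tubb1, a tubulin of platelets, was left out. This gave 75 genes of 14218 on the array, read by 111 of 31099 probe sets. For each gene the probe set that was brightest on average is used, and for Myh1 every probe set is given. The symbol rule also took 4 Tubgcp genes, which encode gamma-tubulin complex proteins and not tubulins, and they are kept as a family of their own. It took no probe set for Actb, Actc1, Myl6, Tuba1a, Tuba1b or Tuba1c, because none carried such a symbol alone, so the beta-actin and main alpha-tubulin genes are not among the 75.

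The kidneys came from male Wistar rats weighing 370 to 508 g and stood for organs donated after cardiac death. All of them had 20 min of warm ischaemia, then 17 ± 0.7 h of cold storage in a preservation solution, and then perfusion with blood from a recipient's femoral artery for 5 h 43 min ± 21 min, with no heparin given as an anticoagulant, the labels not naming the kind of error. Recipients received normal saline at 1 ml/h (control), heparin, a sulphated polysaccharide, at 100 U/ml/h, or peptide 2, modelled on the part of the chemokine CCL5 that binds heparin, at 0.5 mg/ml, each group having 7 recipients. The treatment protocol calls this an infusion and the series' design text a bolus, so it is not settled how the stated doses were given. RNA of the 3 kidneys with the best RNA in each group was pooled and put on 1 array per group, so the pools were selected on quality and no difference below has a replicate check or a test. There is no untreated or unperfused kidney among the 3 arrays.

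Actin filaments, microtubules and intermediate filaments give an epithelial cell its shape. Actin with non-muscle myosin forms the brush border and the contractile belt of the tubule cell, microtubules carry cargo between its poles, and keratins tie it to its neighbours. Sarcomeric isoforms of actin and myosin belong to striated muscle, while the smooth muscle isoforms mark the vessel wall and pericytes. In the kidney, filaments of the tubule cell are known to come apart in ischaemia, and keratins such as Krt8 and Krt18 mark simple epithelium.

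The values are log2 expression values, on which a difference of 1 is a factor of 2. The lowest value was 2.18 on every array, and the medians of all probe sets were 4.14 (control), 4.16 (heparin) and 4.14 (peptide). A gene is called measured in a comparison when it lay at or above the median of both arrays. Many values were the same on different arrays to within 1e-06, which alone is no measure of equal transcript abundance. The kidney label was checked on 20 markers of tubules and podocytes, and all 20 were measured in every comparison, with Umod, the thick ascending limb protein uromodulin, at 14.85, 15.02 and 14.88 on the control, heparin and peptide arrays. In these bulk pools, fewer cells of a type and less RNA per cell cannot be told apart.

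Of the 75 genes, 38 lay at or above the median on all 3 arrays, 37 lay below it on all 3, and 0 were mixed. Over the whole array 9231 of 14218 genes lay at or above the median on all 3. At the lowest value of the table, to within 0.01, were 27 of the 75 genes on every array. Of all probe sets 30.9%, 29.5% and 30.9% were at it on the control, heparin and peptide arrays. These shares count probe sets on single arrays, so they are not a like measure for the 27 genes. All 3 non-muscle myosin heavy chains and all 4 tropomyosins were measured, and so were 8 of 10 tubulins. Of 25 keratins only 8 were measured, and of 9 sarcomeric and smooth muscle myosin heavy chains only Myh1 and Myh11. Of 9 myosin light chains 3 were measured, of 4 actins 2, of 7 Des, Tagln and Cnn genes 5, and of 4 Tubgcp genes 3.

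**Figure D1:**
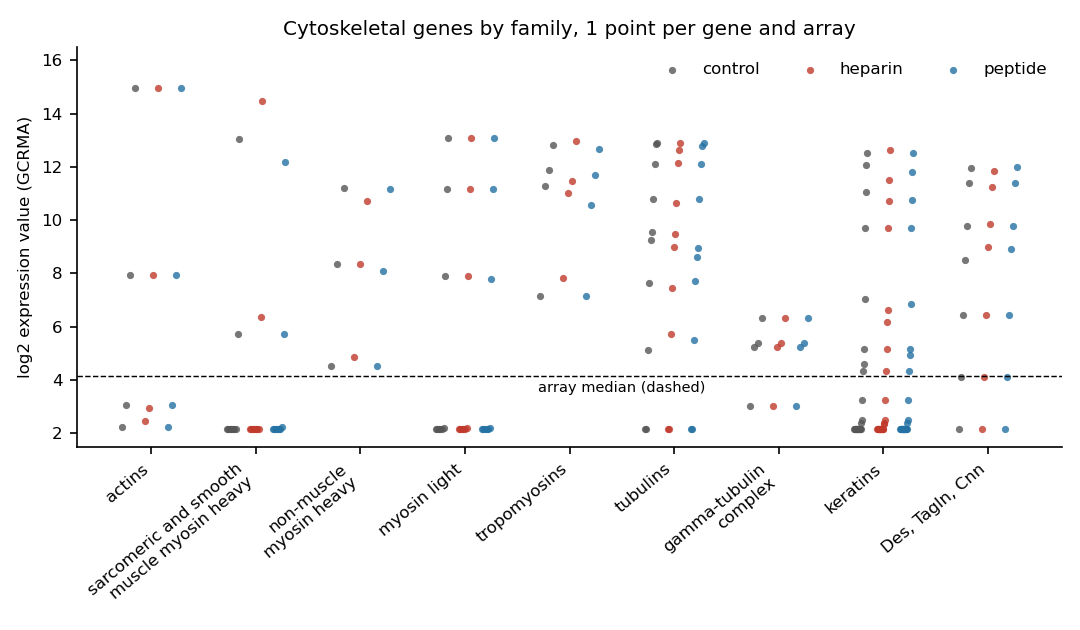
Log2 expression value (vertical axis, GCRMA) of each of the 75 genes on the 3 arrays, control, heparin and peptide, grouped by family, with 1 point per gene and array and the median of all probe sets as a dashed line. Of the 37 genes under the line 27 are at the lowest value, 2.18, and under it lie 7 of 9 sarcomeric and smooth muscle myosin heavy chains and 17 of 25 keratins.

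Heparin against control asked what the glycosaminoglycan did to the reperfused kidney. Among the 38 measured genes 11 were higher with heparin, 16 lower and 11 identical, with a median difference of 0, as over all 9236 measured genes. Of those 9236 genes 25.8% were higher, 44.2% lower and 30.1% identical. Krt15, a keratin of basal epithelial cells, and Myh1, the fast skeletal muscle myosin, were at least 2-fold higher. That is 2 of 38, where 1.06% of all measured genes were that much higher. No gene of the 38 was at least 2-fold lower, where the background was 0.747%. Tubb1, left out of the list by name, read 6.95, 5.46 and 5.73 on the control, heparin and peptide arrays. It was 2.80-fold lower with heparin, so the counts of 0 lower genes in this comparison hold only without it. At least 1.5-fold higher were 5 of 38 (13.2%), namely Krt15, Myh1, Tpm2, Myh11 and Tuba8, against 3.04% of all measured genes. This count was 2 or 3 under 4 of 8 alternatives: with 32 added to the unlogged values it kept Krt15 and Myh1 (background then 2.37%), and with the filter at the 60th percentile Myh1 and Tpm2. At least 1.5-fold lower were 0 of 38, against 3.37%. With 38 genes, 1 gene is 2.63% of them.

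Peptide against control used the same control array, so both comparisons share its error. With peptide 6 of the 38 genes were higher, 14 lower and 18 identical, and the median difference was again 0. Of all 9268 genes measured in this comparison 32.01% were higher, 28.5% lower and 39.5% identical. At least 2-fold higher were 0 of 38 (background 0.723%), and 0 were at least 2-fold lower (background 0.119%). Tubb1, not among the 38, was 2.32-fold lower with peptide, so this 0 too holds only without it. At least 1.5-fold lower were 4 of 38 (10.5%), namely Myh1, Tpm1, Tubb2b and Tubb5, against 0.917% of all measured genes. The median of each gene's probe sets left Tubb2b and Tubb5, and 32 added to the unlogged values left Myh1 and Tpm1. At least 1.5-fold higher were 0 of 38, against 2.11%.

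Heparin against peptide, the direct comparison of the treatments, had 16 genes of the 38 higher with heparin, 12 lower and 10 identical, with a median of 0. Over all measured genes 26.8% were higher, 43.7% lower and 29.5% identical. Myh1 and Krt15 were again at least 2-fold higher, 2 of 38 against a background of 0.281%, and 0 were at least 2-fold lower against 0.844%. At least 1.5-fold higher were Myh1, Krt15, Tpm2 and Myh11, 4 of 38 (10.5%) against 1.62%, a count that was 2 under the same 4 alternatives. At least 1.5-fold lower were 0 of 38, against 4.57%.

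**Figure D2:**
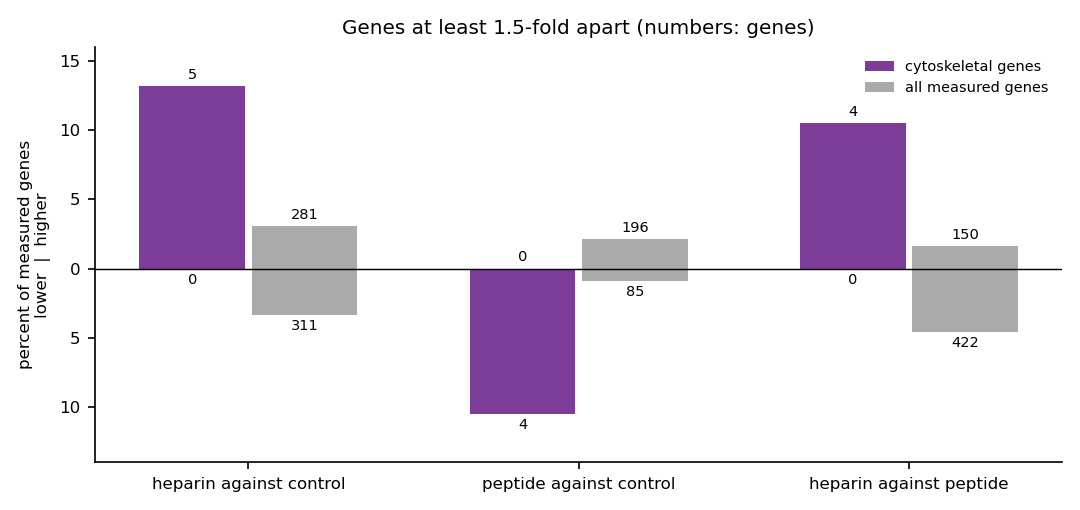
Percent of measured genes at least 1.5-fold apart (bars above 0, higher; bars below 0, lower) in each comparison, for the 38 cytoskeletal genes and for all measured genes, with the number of genes at each bar. The cytoskeletal bars stand on the higher side for heparin (5 and 4 genes) and on the lower side for peptide (4 genes), counts that fell to 2 under some alternatives. Tubb1, lower than control with both treatments, was left out of the cytoskeletal genes by name.

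**Figure D3:**
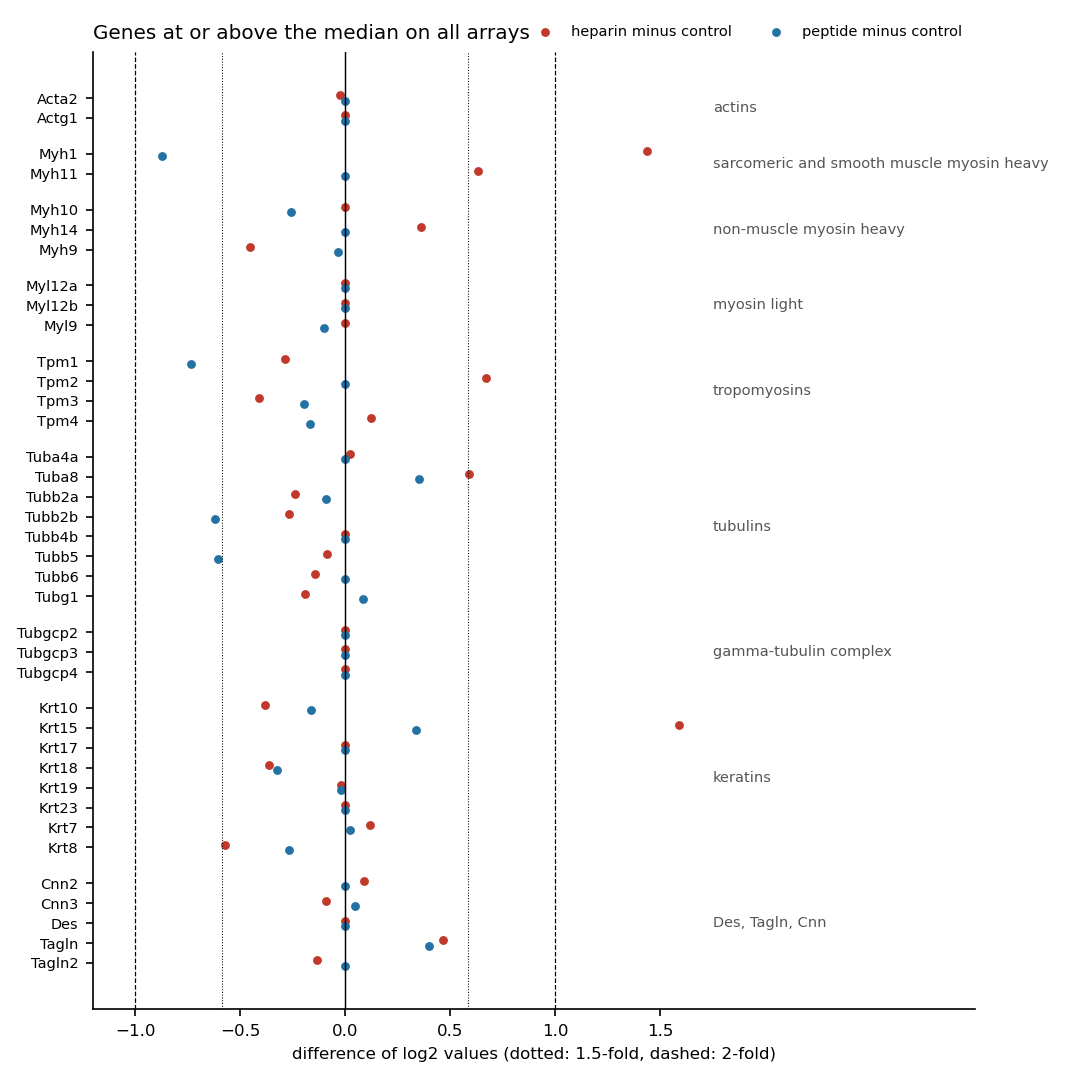
Difference of log2 values (horizontal axis) for each of the 38 measured genes, heparin minus control and peptide minus control, grouped by family, with dotted lines at 1.5-fold and dashed lines at 2-fold. Krt15 and Myh1 lie past the 2-fold line with heparin, and most other points lie within 0.5 of 0.

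Myh1 encodes the heavy chain of myosin IIx, a motor of fast skeletal muscle fibres. Its brightest probe set read 13.04 on the control, 14.48 on the heparin and 12.17 on the peptide array. The heparin pool was thus the highest and the peptide pool the lowest: 2.71-fold above control with heparin, 1.83-fold below it with peptide, and 4.96-fold between the treatments. Differences as large in either direction were found for 0.758% of measured genes in heparin against control, 1.24% in peptide against control and 0.0758% in heparin against peptide.

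The other 4 Myh1 probe sets had the same order of arrays. They read 12.31, 12.52 and 11.87 on the control, heparin and peptide arrays, then 12.03, 13.22 and 11.20, then 11.74, 12.38 and 11.50, and then 11.39, 12.49 and 10.73. Heparin minus control ranged from 0.22 to 1.44 over the 5 probe sets, with a median of 1.10, and peptide minus control from -0.87 to -0.24, with a median of -0.66. With the mean of all Myh1 probe sets the heparin difference was 0.92, just under 2-fold. The 5 probe sets read the same RNA pools and are not replicates.

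**Figure D4:**
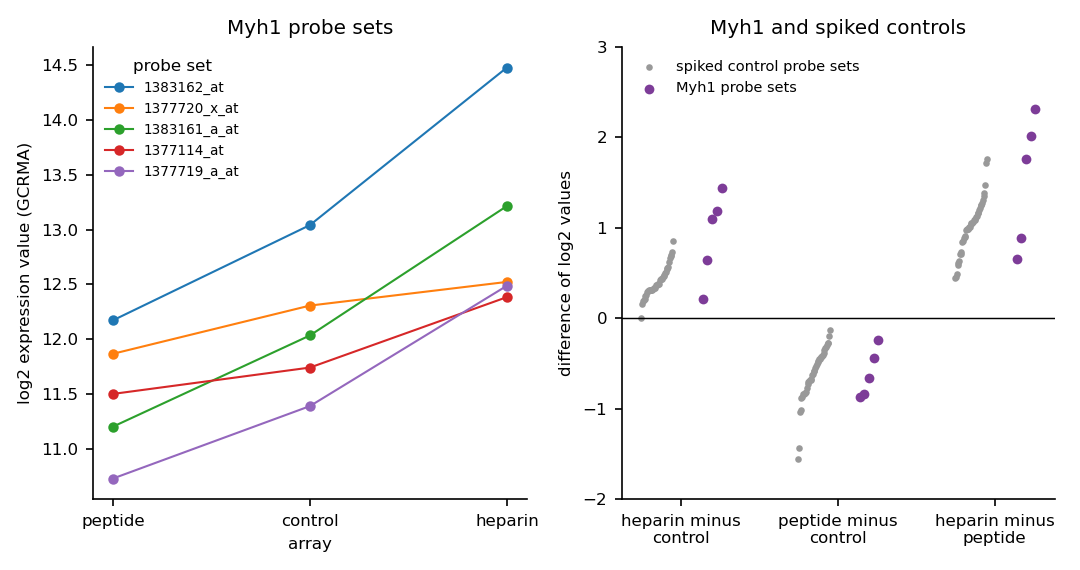
Left, log2 expression value of the 5 Myh1 probe sets on the peptide, control and heparin arrays, 1 line per probe set. Right, the differences of the same 5 probe sets and of 42 spiked control probe sets in each comparison; both sets of points lie at or above 0 for heparin minus control and below 0 for peptide minus control.

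The order of arrays seen for Myh1 was also that of the bacterial and phage control transcripts that are added to each sample or hybridisation. Their 42 measured probe sets had medians of 9.43, 9.86 and 8.79 on the 3 arrays in that order (control, heparin, peptide), and 41 of them lay in the order heparin, control, peptide. Heparin minus control was between 0 and 0.85 for them (median 0.37) and peptide minus control between -1.55 and -0.13 (median -0.58). Among all 9231 genes measured on every array 6.10% had this order, and among the 38 cytoskeletal genes 2 did, Myh1 and Tpm4. Of 11 rat control probe sets 2 had it too: 5S ribosomal RNA, at 6.98, 8.997 and 6.63 on the control, heparin and peptide array, and the B1 repeat, at 8.05, 8.93 and 7.59. Heparin minus control was 2.02 and 0.88 for these, above the highest value of the spiked controls. The part of any of these differences in the Myh1 result was not tested.

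Most other striated muscle genes were not measured. In the RefSeq gene order Myh1 stands in a row of myosin genes with Myh3, Myh2, Myh4, Myh8 and Myh13, the heavy chains of embryonic, other fast, neonatal and extraocular fibres. All 5 of these were at 2.18 on all 3 arrays, and the cardiac chain Myh6 was too, while Myh7, of slow and cardiac muscle, was at 2.18, 2.18 and 2.23. Of 33 further sarcomere and skeletal muscle genes 21 were at the lowest value on all arrays, 27 were below the median on all, and 5 were measured. Over the 33 genes the mean was 2.88 on the control, 2.97 on the heparin and 2.88 on the peptide array. The one gene of this list at least 1.5-fold apart was Car3, a carbonic anhydrase of muscle that is also found in fat and liver, at 6.31, 8.59 and 6.41. Tnnc1, a troponin C, read 8.36, 8.56 and 8.06 on the control, heparin and peptide arrays, which is the order of Myh1 with smaller differences. With heparin 2 of the 5 measured genes were higher, 1 lower and 2 identical. The skeletal light chains Myl1 and Myl11, the slow and cardiac chains Myl2 and Myl3 and the atrial chain Myl7 were at the lowest value throughout, with Myl4, of atrium and embryonic muscle, at 2.19, and skeletal alpha-actin, Acta1, was at 3.07, 2.96 and 3.07. The 5 Myh1 probe sets were designed from 3 expressed sequence tags, and whether each of them reads the Myh1 transcript could not be checked with the sequences used here.

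The start regions of Myh1 and of the fast chain genes Myh2 and Myh4 are shown because the genes are neighbours and the Myh1 probe sets were measured while those of the other 2 were at the lowest value; levels of different probe sets are not comparable. Each sequence is from RefSeq (GRCr8), on the gene's own strand, and ends at the base before the annotated start. Capitals mark the letters TATAAA and the CArG box, the element bound by serum response factor.
Myh1, chr10:52384792-52384911, plus strand: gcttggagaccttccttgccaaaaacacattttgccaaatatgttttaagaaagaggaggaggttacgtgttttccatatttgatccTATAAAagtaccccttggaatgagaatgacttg
Myh2, chr10:52355619-52355738, plus strand: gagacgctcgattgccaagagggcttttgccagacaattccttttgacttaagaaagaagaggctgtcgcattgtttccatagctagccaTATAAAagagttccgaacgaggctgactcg
Myh4, chr10:52422008-52422147, plus strand: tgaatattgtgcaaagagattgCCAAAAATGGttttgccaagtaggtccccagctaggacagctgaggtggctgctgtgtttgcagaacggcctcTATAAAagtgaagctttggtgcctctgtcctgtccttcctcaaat
All 3 windows hold TATAAA a little upstream of the start, and the Myh4 window also holds a CArG box. Searched on both strands over a stretch reaching further upstream than the windows shown, TATAAA was present in 12.9% of 33469 RefSeq promoters. It was present in 19 of the 63 cytoskeletal genes that had a promoter. The share is per promoter, while the 63 genes had 70 promoters and were counted when any of these held it. The figures are thus not in like units. Such a match describes the letters and shows neither binding nor use of the site.

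Myh11, the heavy chain that defines smooth muscle, read 5.74 on the control, 6.37 on the heparin and 5.74 on the peptide array. The heparin pool was 1.55-fold above both others, a size that 5.38% of measured genes reached in heparin against control, and the other probe set of the gene was at 2.18. The non-muscle heavy chains are the motors of the cell cortex. Myh9, the most widely expressed, read 11.19, 10.74 and 11.16 on the control, heparin and peptide arrays, 0.45 lower with heparin. Myh10 read 8.35, 8.35 and 8.09, lower in the peptide pool alone by 0.26. Myh14, a chain of epithelia, read 4.52, 4.88 and 4.52, so the 3 genes each had a different array apart from the rest or a different direction. The regulatory light chains that pair with them hardly differed: Myl12a was at 13.08 and Myl12b at 11.19 on all arrays, and the smooth muscle chain Myl9 was at 7.90, 7.90 and 7.80.

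Of the actins, the cytoplasmic gamma-actin gene Actg1 was at 14.95 on all arrays, and its other probe set read 4.57, 4.33 and 4.48 on the control, heparin and peptide arrays. Acta2, the actin of vascular smooth muscle and myofibroblasts, read 7.95, 7.93 and 7.95. Actg2, of visceral smooth muscle, lay below the median at 2.25, 2.46 and 2.25. On their brightest probe sets the measured actins Actg1 and Acta2 thus differed by 0.02 at most. The array has control probe sets along the beta-actin transcript, which is not one of the 75 genes. For its 3', middle and 5' probe sets heparin minus control was -0.14, -0.52 and -0.75, and peptide minus control was 0.13, 0.25 and 0.13. The 3' beta-actin probe set exceeded the 5' one by 2.33 on the control, 2.95 on the heparin and 2.34 on the peptide array. The same gap for GAPDH was 0.36, 0.32 and 0.37, so the larger gap on the heparin array appeared for beta-actin and not for GAPDH, and its part in the heparin differences was not tested.

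Serum response factor is a transcription factor whose activity follows the pool of free actin monomer, and its CArG box is a classical feature of actin promoters. Actg1 and Acta1 are shown because both windows hold a CArG box while the cytoplasmic gene was measured and the skeletal one was not; capitals have the same meaning as above.
Acta1, chr19:68784195-68784314, minus strand: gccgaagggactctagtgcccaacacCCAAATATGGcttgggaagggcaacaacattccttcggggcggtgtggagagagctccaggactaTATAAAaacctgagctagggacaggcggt
Actg1, chr10:106120952-106121071, minus strand: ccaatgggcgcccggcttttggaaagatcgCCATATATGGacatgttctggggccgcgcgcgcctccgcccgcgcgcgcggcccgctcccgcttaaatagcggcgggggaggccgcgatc
By the same search a CArG box was found in 1.497% of the 33469 promoters, a share again per promoter. Counted per gene, it was found in 5 of the 63 cytoskeletal genes with a promoter, Acta1, Actg1, Cnn2, Myh4 and Myl3. Of these 5, only Actg1 and Cnn2 were measured, and on their brightest probe sets the largest difference from control was 0.09, for Cnn2 with heparin.

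Regulators of the actin filament were mostly measured, 43 of 44 found. Against control 19 were higher with heparin, 18 lower and 6 identical, and with peptide 14 were higher, 18 lower and 11 identical, with medians of 0. Wasf2, which switches on branched actin assembly, read 8.33, 7.41 and 8.50 on the control, heparin and peptide arrays, lower by 0.91 with heparin. Vil1, the brush border bundler villin, read 8.97, 8.37 and 9.16. The heparin pool was the lowest for both genes. Vcl, the adhesion protein vinculin, read 11.17, 10.27 and 10.46, but another of its probe sets went the other way with heparin. Lima1, which stabilises actin bundles, read 9.52, 10.14 and 9.63, and Pfn2, the monomer-binding profilin 2, read 8.002, 7.28 and 7.70. At least 1.5-fold from control with heparin were thus 1 regulator higher (background 3.04%) and 4 lower (background 3.37%). In the serum response factor pathway, 14 of 16 genes found were measured. With heparin 10 were lower, 1 higher and 3 identical (median -0.17), and with peptide 7 were lower, 3 higher and 4 identical (median -0.04), where 44.2% and 28.5% of all measured genes were lower.

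Tropomyosins lie along actin filaments and set which motors and regulators can bind. Tpm1 read 11.30 on the control, 11.01 on the heparin and 10.57 on the peptide array, the peptide pool being lowest by 1.66-fold, a size that 1.85% of measured genes reached. Of its 6 measured probe sets 3 were lower with peptide, 3 were identical and 0 were higher, and the median over all its probe sets was 0. The next brightest read 9.92, 9.12 and 9.22, so with that one both treatments were lower by a like amount.

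Tpm2, the beta form abundant in smooth muscle, read 7.16, 7.84 and 7.16 on the control, heparin and peptide arrays. The heparin pool was 1.59-fold above both others. With the mean of its probe sets the difference was 0.34 in place of 0.67. Tpm3 read 11.88, 11.47 and 11.68, highest in the control pool, yet its 9 measured probe sets did not go one way: 5 were lower with heparin and 4 higher, from -0.41 to 1.42. The highest of these differences belonged to the dimmest measured probe set, at 4.31, 5.73 and 5.08, while the others lay within 0.42 of control. The remaining higher ones exceeded control by only 0.04, 0.02 and 4.3e-06 with heparin. Tpm4 read 12.84, 12.96 and 12.67, higher by 0.12 with heparin, while the mean of its 2 probe sets gave -0.07; both probe sets were lower with peptide.

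**Figure D5:**
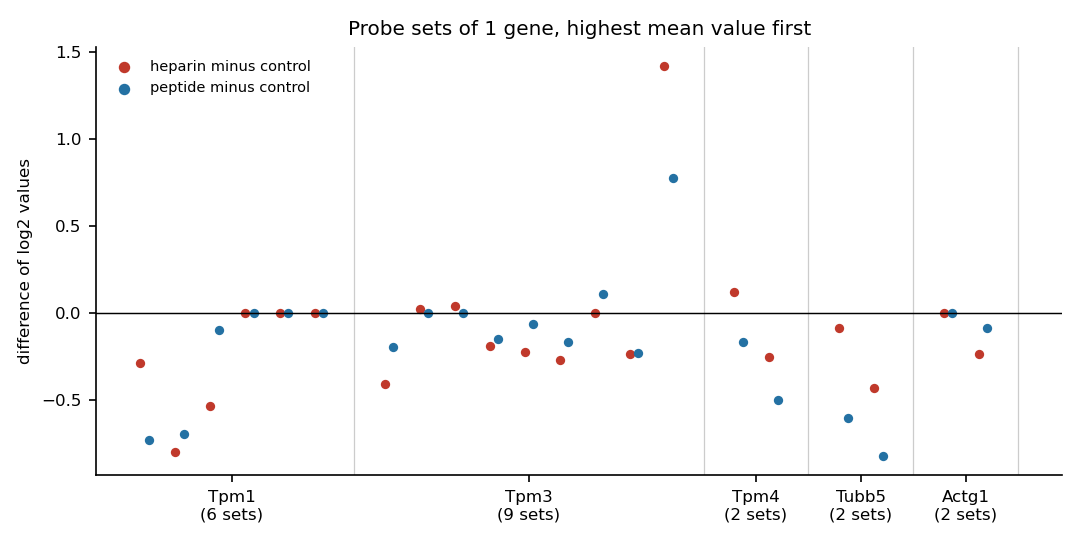
Difference of log2 values (vertical axis), heparin minus control and peptide minus control, for every measured probe set of 5 genes that have more than 1, ordered by mean value. Tpm1, Tubb5 and Actg1 have no point above 0, while Tpm3 has points on both sides, up to 1.42.

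Tubulins pair as alpha and beta subunits into microtubules. Tubb4b was at 12.90 on all arrays, Tuba4a at 12.11, 12.13 and 12.11, and Tubb2a, lower by 0.24 with heparin, at 12.88, 12.64 and 12.79. Of the 3 tubulins at least 1.5-fold from control, Tubb1 being left out, 2 were lower with peptide and 1 was higher with heparin. Tubb2b, a beta form best known from neurons and regenerating tissue, read 9.24 on the control, 8.98 on the heparin and 8.62 on the peptide array, 1.54-fold below control with peptide. Tubb5, a widely expressed beta form, read 9.57, 9.48 and 8.96, 1.52-fold below control with peptide. Its other probe set read 9.0, 8.56 and 8.17, so the peptide pool was the lowest on both. Differences as large were found for 2.70% (Tubb2b) and 2.78% (Tubb5) of measured genes.

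Tuba8, an alpha form of low abundance in most tissues, read 5.14, 5.73 and 5.49 on the control, heparin and peptide arrays, with both treated pools above control, 1.51-fold with heparin. Tubb6 read 10.78, 10.64 and 10.78, and Tubg1, the gamma-tubulin that seeds microtubules, read 7.63, 7.44 and 7.71. The neuronal forms Tubb3 and Tubb4a were at the lowest value throughout. Of the Tubgcp genes, which build the ring around gamma-tubulin, Tubgcp2, Tubgcp3 and Tubgcp4 stood at 6.33, 5.41 and 5.25 on every array (Tubgcp3 to within 0.001). Over the 8 measured tubulins 2 were higher with heparin and 5 lower (median -0.11), and with peptide 2 were higher and 3 lower (median 0). Over all measured genes 44.2% were lower with heparin and 28.5% with peptide.

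Genes that work on microtubules, 39 of 40 measured, had 11 higher, 12 lower and 16 identical with heparin, and 10 higher, 13 lower and 16 identical with peptide. Kif11, the motor that separates spindle poles, read 7.37, 5.88 and 7.49 on the control, heparin and peptide array, and was the one gene of the list at least 2-fold lower with heparin; its other probe set read 6.31, 6.22 and 6.31. Ttl, which restores the terminal tyrosine of alpha-tubulin, read 7.39, 7.10 and 6.79, lowest in the peptide pool.

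Keratins form the intermediate filaments of epithelia. Krt8 and Krt18, the pair of simple epithelium, read 12.09, 11.52 and 11.82 and then 11.07, 10.71 and 10.75 on the control, heparin and peptide arrays. Both were highest in the control pool; heparin minus control was -0.57 for Krt8, a size reached by 6.80% of measured genes, and -0.36 for Krt18. Krt7 and Krt19, of ducts and urothelium, were nearly level, at 12.51, 12.63 and 12.54 and at 9.72, 9.70 and 9.70. Krt10, of suprabasal skin cells, read 7.02, 6.64 and 6.86. Krt8 and Krt18 were thus lower in both treated pools, and Krt7 and Krt19 stayed within 0.12 of control.

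Krt15 read 4.60 on the control, 6.19 on the heparin and 4.94 on the peptide array, from 1 probe set. The heparin pool was 3.01-fold above control and 2.39-fold above peptide, sizes that 0.498% and 0.574% of measured genes reached. On the control array it was not far over the median of 4.14, and with 32 added to the unlogged values the heparin difference was 0.90. Other keratins of basal and stratified epithelium did not share it: Krt5 was at the lowest value, Krt14 at 2.37 and Krt17 at 4.35 on all arrays. Krt20, of urothelial and intestinal surface cells, was at 3.25 throughout. Of 8 urothelial markers 6 lay below the median on all arrays and 1 of those at the lowest value, with list means of 4.17, 4.21 and 4.13. Of 10 markers of stratified epithelium 6 were at the lowest value, with means of 4.75, 4.65 and 4.76. The part of either cell type in the Krt15 value was not tested.

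Among 18 measured genes of other intermediate filaments and of the desmosome, 7 were higher with heparin, 7 lower and 4 identical, and 5 were higher with peptide, 10 lower and 3 identical. Eppk1, the keratin linker epiplakin, read 6.89, 8.0 and 8.02, at least 2-fold higher in both treated pools. Vim, the filament of mesenchymal and injured tubule cells, read 12.64, 12.88 and 12.39.

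Of the smooth muscle genes, Tagln, an actin-binding protein of contractile cells, read 8.51, 8.98 and 8.91 on the control, heparin and peptide arrays, above control in both treated pools by 0.47 and 0.40. Des, the muscle intermediate filament desmin, was at 6.46 on all arrays, and Cnn1, the smooth muscle calponin, at 4.12, just under the median. The forms found in many cell types differed little: Tagln2 read 11.40, 11.26 and 11.40, Cnn2 9.76, 9.85 and 9.76, and Cnn3 11.96, 11.86 and 12.001. Tagln3 was at the lowest value.

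The members of the contractile set that were higher with heparin, Myh11, Tpm2 and Tagln, stood beside Acta2, Des and Cnn1, which were level. Of 16 further smooth muscle and pericyte genes 8 were measured, 3 of them higher with heparin and 5 lower (median -0.11), with list means of 5.53, 5.51 and 5.47 on the control, heparin and peptide arrays. Fibroblast markers had list means of 6.04, 6.30 and 5.96, and 5 of 7 measured were higher with heparin (median 0.38). Endothelial markers had means of 7.82, 7.99 and 7.76, and 5 of 9 measured were higher with heparin (median 0.18). Of the podocyte genes, Podxl was higher with heparin by 0.74, Wt1 and Synpo by 0.52 each and Nphs1 by 0.04. Each of them had the order of arrays of Myh1, with Wt1 at 7.48, 7.999 and 6.68. That order was not particular to podocyte genes. Kdr and Tek of the endothelium, Col1a1 and Col3a1 of fibroblasts, and the injury markers Vim and Clu had it too, while other genes of these lists did not. Kdr read 10.27, 10.59 and 9.71 on the control, heparin and peptide arrays. Platelet markers, Tubb1 among them and 6 of 10 measured, had means of 5.44, 5.10 and 5.13, with 4 of 6 lower in each treatment (medians -0.78 and -0.48). Tubular injury markers, all 10 measured, had means of 11.78, 11.68 and 11.39, and 9 of 10 were lower with peptide (median -0.30). Against control, 25.8% of all measured genes were higher and 44.2% lower with heparin, and 28.5% were lower with peptide. The part of these cell types and of injury in the cytoskeletal differences was not tested.

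Identical values were unevenly spread over the pairs of arrays. Of the 38 measured genes 9 were identical on all 3 arrays (23.7%, against 22.4% of all genes measured on every array). A further 9 were identical on the control and peptide arrays alone (23.7% against 17.1%), among them Myh11, Myh14, Tpm2 and Acta2. Only 2 were identical on the control and heparin arrays alone (5.26% against 7.66%), Myh10 and Myl9. For genes identical on the control and peptide arrays, heparin against control and heparin against peptide are the same number.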

How the data were processed

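Expression was measured in 3 kidney RNA pools on 1 Affymetrix rat array each. The deposited values are log2 values per probe set, made by the authors with GCRMA per the submitters' processing notes; its version, settings and normalization are not given there, and the values were used unchanged. The platform annotation gave 1 symbol to 20832 probe sets, several to 436 and none to 9831; 73 of the 75 genes had an ID in RefSeq (GRCr8). A gene was measured at or above the median of both arrays. Differences were counted at 2-fold and 1.5-fold. With 1 array per group no test was possible, and the number of arrays limits the precision. Values within 1e-06 count as identical; a tolerance of 0.001 was also tried, after the values were seen.

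The members and gene lists were chosen with earlier results of these data known. Named were members at least 2-fold apart, the 3 largest differences per family and comparison unless another measured probe set went the other way, a list of main isoforms, and up to 3 genes per list. The neighbours in the Myh1 row, all Myh1 probe sets, the other isoforms mentioned, the podocyte genes and genes with a probe set going the other way were named beyond this rule, after their values were seen. Alternatives covered the filter on dim genes, the normalization, the choice of probe set and the scale. The counting was tested on simulated data. Python 3.11.15, numpy 2.4.6, pandas 2.3.3 and matplotlib 3.10.9 were used.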

Additional observations from a re-analysis of the deposited data

How the results depend on the processing

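Each value was recomputed under up to 8 alternatives: the filter on dim genes at the 40th or 60th percentile or none, quantile normalization, arrays centred on their mean, the mean or median of a gene's probe sets, and 32 added to the unlogged values. For heparin against control the 2 genes at least 2-fold apart became 1 with the filter at the 60th percentile (Myh1), with the mean or median of the probe sets (Krt15), and with 32 added (Myh1). For heparin against peptide the 2 became 1 with the filter at the 60th percentile and with 32 added (Myh1 in both). The filter takes out Krt15, at 4.60 on the control array, and 32 added puts Krt15 at 0.90. The mean and median of the probe sets, taken on each array before subtracting, put Myh1 at 0.92 and 0.49. The array medians behind the 0.49 come from different probe sets. The median of the differences of the single Myh1 probe sets was 1.10. Counts at 1.5-fold were added after the values were seen. For heparin higher than control, 5 genes became 2 with the filter at the 60th percentile, 3 with the mean and 2 with the median of the probe sets, and 2 with 32 added. For peptide lower than control, 4 became 2 with the median and 2 with 32 added. For heparin higher than peptide, 4 became 2 under each of those 4 alternatives. The median over all members moved by no more than 0.1 under any of them. Of 768 alternative values for single named genes 726 stayed within 0.1 and 42 moved further. Many of the 726 could not move. A change of filter leaves a gene's difference as it is, and the mean or median does so for a gene with 1 probe set. Cases where a gene was no longer measured are not counted. The moves came with the mean (15) and median (16) of the probe sets and with 32 added (11). None of the differences of at least 2-fold changed sign. Of the smaller ones, Tpm4 (heparin against control) became -0.07 with the mean or median of its probe sets. The median of the non-muscle heavy chains (heparin against peptide) became -0.08 with the filter at the 60th percentile. Quantile normalization gave 36 genes at least 2-fold higher and 57 lower over all genes in heparin against peptide, where the deposited values gave 26 and 78. With values within 0.001 taken as identical, tried after the values were seen, identical members numbered 12, 18 and 11 in place of 11, 18 and 10. No replicate could be left out and no paired analysis was possible because each group has 1 array, and dim genes near 2.18 limit what can be seen.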

Other observations

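Some genes shared the order of arrays seen for Myh1, by a rule chosen after its values were seen: heparin above control and control above peptide, each by at least 1.5-fold. Of 9231 genes measured on all arrays 5 met it, and 8 met it in the reverse order. Beside Myh1 these were Ighl2, at 5.86 on the control, 7.16 on the heparin and 4.2 on the peptide array, and RT1-T24-3, a class I histocompatibility gene, at 8.59, 9.34 and 7.79. The others were Nxpe3, at 5.68, 6.41 and 5.02, and Spetex2l2, at 6.54, 10.22 and 5.62. Of 15402 probe sets measured on all arrays 22 met it: 8 with 1 gene symbol, 13 with none and 1 array control.

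Csrp3, a protein of the muscle Z-disc and one of 9 cardiac muscle genes looked at, read 7.36 on the control, 6.08 on the heparin and 6.08 on the peptide array, so both treated pools were more than 2-fold below control. Of the 9 genes 4 were at the lowest value and 7 below the median on all arrays.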
